A study of Mus musculus with 36 samples.

Results

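The genes described here encode the heat shock proteins and their partners in protein folding, 53 genes chosen by name. Each had to reach at least 1 RPM (counts scaled to a common, normalised library total) in at least 12 of the 36 libraries, and all 53 did, out of 13995 genes that passed this filter and 55416 genes in the count table. They were read in 10 classes: 9 HSP70 genes, 3 HSP110 genes, 3 HSP90 genes, 7 small heat shock protein genes, the 2 genes of the mitochondrial chaperonin, 10 DNAJ genes, 3 BAG genes, 2 heat shock factor genes, 7 cochaperone genes and 7 subunits of the CCT chaperonin. The cells were myotubes of C2C12, a mouse myoblast line that fuses into contracting muscle fibres in low-serum medium. All wells received an antisense locked nucleic acid (LNA) on day 3 of differentiation, either a negative control (control myotubes) or one against the long noncoding RNA *Tug1* (*Tug1* KD), and were used 24 h later, on day 4. Electrical pulse stimulation (EPS), which makes myotubes contract, was applied for 3 h, and RNA was taken either straight afterwards (EPS 0h) or once the wells had recovered for another 3 h (EPS 3h). Rest wells held the same electrodes without current, and the sources used here do not give at which of these times they were harvested, so that longer culture and recovery cannot be told apart at EPS 3h. Each of the 6 combinations has 6 libraries of poly-A RNA, 1 well each. By the study's methods the wells come from only 2 experiments with 3 wells a condition, so every SD, SE and p-value with n = 6 measures the spread between wells of 1 cell line, and the labels do not name the experiment of a well.

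Chaperones bind unfolded proteins and keep them from clumping. In the cytosol, DNAJ proteins (HSP40) hand clients to HSP70, HSP110 and BAG proteins release the nucleotide from HSP70, and HSP90 with its cochaperones finishes a narrower set of clients, while small heat shock proteins hold unfolded chains without using ATP. The transcription factor HSF1 is kept inactive by chaperones and, once freed, binds heat shock elements in the promoters of many of these genes, whereas chaperones of the endoplasmic reticulum (ER) answer to a separate programme through ER stress elements. In muscle, HSP70 and small heat shock proteins are known for protecting and maintaining the sarcomere during contraction.

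Total counts per library ranged from 17005079 to 24181167. The targeted RNA, *Tug1*, was lower in *Tug1* KD at Rest, with 24.0 to 33.3 RPM against 38.6 to 58.3 RPM (log2 fold change, log2FC, -0.83, edgeR FDR = 0.000915), and the libraries of both LNAs overlapped at EPS 0h and EPS 3h, where its log2FC was -0.57 and -0.51 (edgeR, FDR = 0.0178 and 0.0414). At EPS 0h *Tug1* had 29.5 to 61.9 RPM in *Tug1* KD against 55.05 to 80.6 RPM in control. At EPS 3h it had 40.0 to 84.6 RPM against 54.6 to 107 RPM. The *Tug1* KD libraries at EPS 3h thus lay above those of *Tug1* KD at Rest, and within or above the range of Rest control. Of 10 myotube markers 9 passed the filter and their summed level lay between 13650 and 18640 RPM in every library, while *Tnnc2* did not pass. Single markers differed more than the sum: with *Tug1* KD against control, 1 of the 9 was called lower and 0 higher in each condition. Their log2FC ranged from -0.445 to 0.359 at Rest, from -0.5 to 0.646 at EPS 0h and from -0.461 to 0.709 at EPS 3h. The 8 markers of undifferentiated or dividing cells summed to between 156 and 270 RPM, and their group mean was 250 RPM at EPS 0h against 204 RPM at Rest in control myotubes; their part in the results below was not tested. Replicates 1 to 3 and replicates 4 to 6 correlated more within than between these sets by the median in every group, although single pairs overlapped in 3 of the 6 groups (Rest *Tug1* KD and both at EPS 3h), and EPS 3h control replicate 3 correlated least with the others of its set (mean Pearson's r = 0.9721 across genes on log2 RPM, against at least 0.9802 in every other library).

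The share of all counts that came from the 53 genes was higher after EPS. At Rest in control myotubes it ranged from 3.10% to 4.21% (median 3.58%), at EPS 0h from 5.69% to 6.75% (median 6.22%), and at EPS 3h from 8.73% to 11.3% (median 9.56%). In *Tug1* KD it ranged from 2.92% to 3.53% at Rest, from 6.06% to 6.97% at EPS 0h and from 8.33% to 11.5% at EPS 3h. The 3 conditions did not overlap with either LNA, whereas the 2 LNAs overlapped in each condition. The TMM normalisation factors moved with this share, at 1.037 to 1.084 in Rest control libraries and 0.916 to 0.975 in EPS 3h control libraries, and scaling by library size alone moved the median log2FC of all genes by -0.168 at EPS 3h and by -0.0749 at EPS 0h in control myotubes. Of the 53 genes, every one called in the fit without a block kept its sign under that scaling and within both sets of replicates, which does not hold for values that were not called or were called only with a block. In such bulk libraries, fewer cells of a type and less RNA per cell cannot be told apart.

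**Figure D1:**
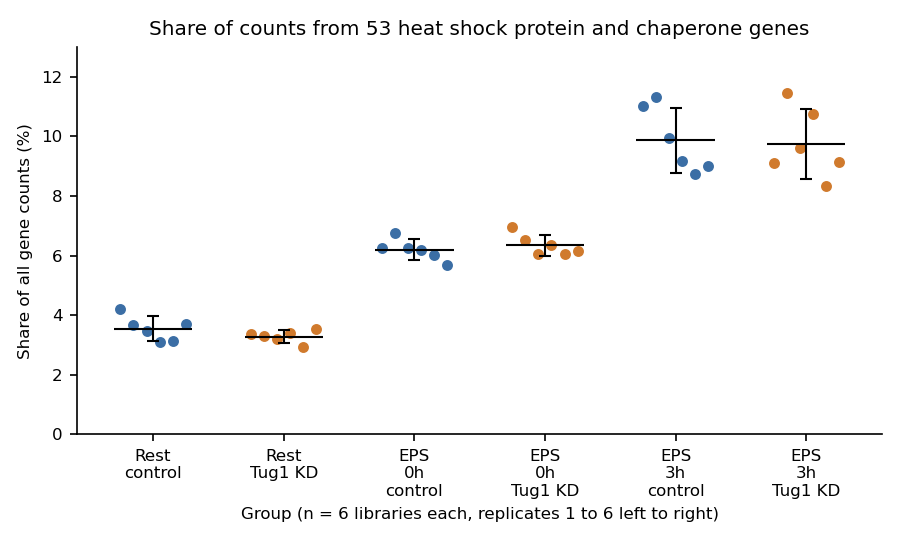
Share of all gene counts taken by the 53 genes in each of the 36 libraries (vertical axis, percent), by group, with control in blue and *Tug1* KD in orange. Points are libraries, horizontal lines are group means and bars are SDs (n = 6). Rest libraries lie between 2.92% and 4.21% and EPS 3h libraries between 8.33% and 11.5%.

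Most of the 53 genes were higher after EPS, and few were lower. At EPS 0h against Rest in control myotubes, 29 rose and 3 fell at an FDR under 0.05 (edgeR), beside 20.5% of all genes tested that rose and 18.4% that fell. At EPS 3h 40 rose and 3 fell, beside 26.1% and 25.9% of all genes. The median log2FC of the 53 genes was 0.40 at EPS 0h and 0.62 at EPS 3h, with -0.03 and -0.02 over all genes. By a stricter rule (FDR under 0.01 and a log2FC above 1), 11 rose at EPS 0h and 21 at EPS 3h, beside 6.23% and 9.62% of all genes, and none fell that far, beside 2.2% and 4.72% of all genes. In *Tug1* KD, 33 rose and 2 fell at EPS 0h (24.4% and 21.2% of all genes), and 39 rose and 2 fell at EPS 3h (26.2% and 25.9%). In *Tug1* KD the stricter rule was passed by 15 genes at EPS 0h and 21 at EPS 3h (8.15% and 11% of all genes) and none fell (2.5% and 4.49%). Both EPS comparisons with the same LNA share their Rest libraries. A block on the replicate number was also fitted, which treats libraries of the same number as pairs, although the labels do not say that they are. With it, 36 rose and 4 fell at EPS 0h in *Tug1* KD (27.9% and 29% of all genes), *Hspb2* and *Hspb7* being the falls gained (FDR = 0.0412 and 0.0472). In control myotubes the block also gained rises, those of *Hsp90b1*, *Cryab*, *Dnajb6*, *Tcp1* and *Cct8* at EPS 0h and of *Hsp90b1* and *Bag2* at EPS 3h. Between EPS 0h and EPS 3h, 31 genes rose and none fell in control myotubes, beside 9.67% and 6.88% of all genes, and 21 rose and none fell in *Tug1* KD, beside 8.59% and 7.13%. With the block 27 rose and 1 fell in *Tug1* KD, beside 11.8% and 12.3% of all genes, and the fall was that of *Hspa2* (log2FC -0.21, FDR = 0.0434).

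**Figure D2:**
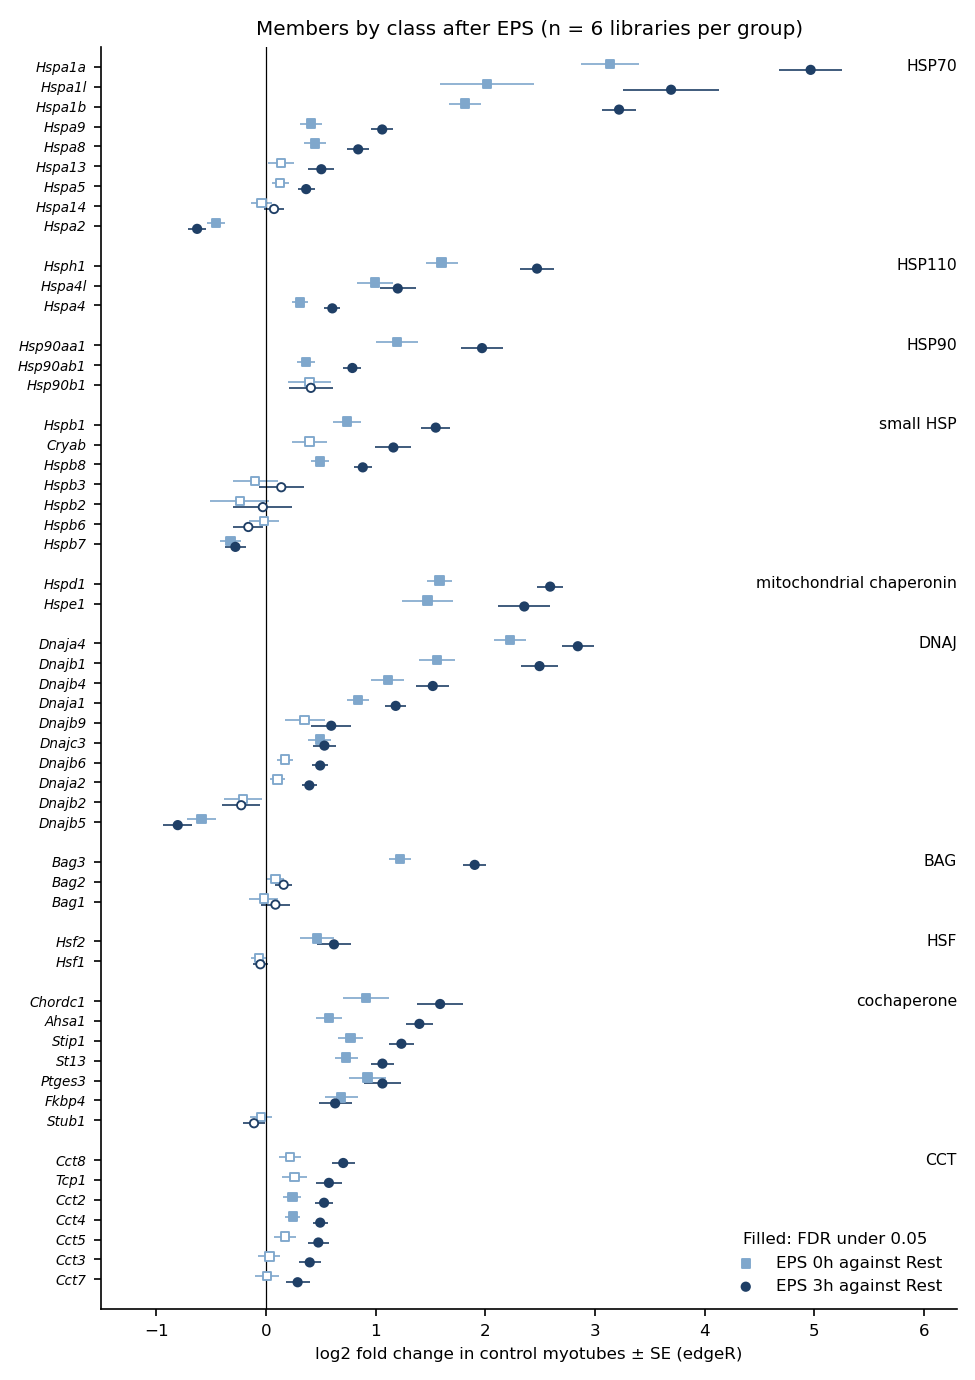
log2FC against Rest in control myotubes (horizontal axis, ± SE derived from the edgeR F statistic) of each of the 53 genes, grouped by class, at EPS 0h (squares) and EPS 3h (circles), with filled symbols at an FDR under 0.05. *Hspa1a* lies farthest right at 4.97 and *Dnajb5* farthest left at -0.80, both at EPS 3h.

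HSP70 proteins are the ATP-driven chaperones that bind short hydrophobic stretches of unfolded chains. *Hspa1a* and *Hspa1b*, the stress-inducible HSP70 genes, lie on the minus strand of chromosome 17 (ENSMUSG00000091971 at chr17:35188166-35191132 and ENSMUSG00000090877 at chr17:35175412-35178214, GRCm39) with starts 12918 bases apart, and over 2209 aligned bases their transcripts differ at 16 (99.28% identical), so that reads may be split between them and their separate values are uncertain. The 150 bases before each start are shown, read from GRCm39 (chr17:35191133-35191282 and chr17:35178215-35178364, minus strand), because *Hspa1a* changed most of the 53 genes. Capitals mark matches to the heat shock element with at most 1 of its 9 fixed letters different.
Hspa1a promoter: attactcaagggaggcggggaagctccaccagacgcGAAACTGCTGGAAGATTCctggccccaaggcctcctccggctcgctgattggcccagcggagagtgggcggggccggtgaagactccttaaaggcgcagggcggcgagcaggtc
Hspa1b promoter: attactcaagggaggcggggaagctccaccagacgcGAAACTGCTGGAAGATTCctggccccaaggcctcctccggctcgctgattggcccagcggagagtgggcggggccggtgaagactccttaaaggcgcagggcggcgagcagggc

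*Hspa1a* had a lowest, median and highest level of 87.5, 134 and 323 RPM at Rest in control myotubes, 1173, 1441 and 1958 RPM at EPS 0h and 4195, 5391 and 6510 RPM at EPS 3h. Its log2FC was 3.14 (SE 0.262, FDR = 1.57e-11) at EPS 0h and 4.97 (SE 0.285, FDR = 3.1e-16) at EPS 3h, and the 3 conditions did not overlap. *Hspa1b* started higher, at 1467 to 2427 RPM (median 1882 RPM), and reached 5511 to 7996 RPM (median 6562 RPM) and 14580 to 19580 RPM (median 18010 RPM), with a log2FC of 1.82 (SE 0.145, FDR = 5.74e-12) and 3.22 (SE 0.153, FDR = 2.85e-18). In *Tug1* KD the log2FC was 3.76 and 5.66 for *Hspa1a* and 2.15 and 3.63 for *Hspa1b*. The third gene of this locus, *Hspa1l*, is known as the testis form of HSP70, runs the opposite way from *Hspa1a* with its start 532 bases away, and rose from 1.36 to 3.93 RPM at Rest to 4.35 to 14.4 RPM and 12.2 to 54.2 RPM, with a log2FC of 2.02 and 3.69. At EPS 3h its replicates 1 to 3 (30.1 to 54.2 RPM) lay above its replicates 4 to 6 (12.2 to 17.7 RPM) in control myotubes, and its log2FC was 3.90 and 3.21 within these sets.

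The other HSP70 genes changed less, and 1 fell. *Hspa8*, the constitutive cytosolic HSP70, rose by a log2FC of 0.45 and then 0.84, and *Hspa9*, the HSP70 of the mitochondrial matrix, by 0.41 and 1.06. *Hspa5* (BiP), the HSP70 of the ER, was called only at EPS 3h (log2FC 0.37), as was *Hspa13*, a microsomal relative, with 0.51. *Hspa14*, which works at the ribosome, gave -0.04 and 0.08 and was not called. *Hspa2*, best known from spermatogenesis, fell in control myotubes from 44.3, 47.3 and 50.8 RPM (lowest, median, highest) at Rest to 32.7, 34.3 and 36.6 RPM at EPS 0h and to 24.0, 32.6 and 34.1 RPM at EPS 3h. Its log2FC was -0.45 (SE 0.0841, FDR = 5.63e-05) and -0.63 (SE 0.0845, FDR = 1.16e-07), and all EPS libraries lay below all Rest libraries.

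All 3 genes of the HSP110 class, which recharge HSP70 with ATP, rose at both times. *Hsph1* (HSP105) went from 1426, 1836 and 2510 RPM at Rest to 4718, 5536 and 6828 RPM at EPS 0h and 8485, 9306 and 13100 RPM at EPS 3h in control myotubes. The conditions did not overlap, and the log2FC was 1.60 (SE 0.147, FDR = 1.22e-10) and 2.47 (SE 0.152, FDR = 1.62e-15). *Hspa4* changed least of the class, from 388 to 460 RPM at Rest to 471 to 580 RPM and 581 to 717 RPM, with a log2FC of 0.31 (SE 0.0712, FDR = 0.000697) and 0.61 (SE 0.0713, FDR = 7.18e-09). *Hspa4l* rose by 1.00 and 1.20. The *Hsph1* window (GRCm39, chr5:149559807-149559956, minus strand) is shown because its matches, in capitals as above, lie next to the start.
Hsph1 promoter: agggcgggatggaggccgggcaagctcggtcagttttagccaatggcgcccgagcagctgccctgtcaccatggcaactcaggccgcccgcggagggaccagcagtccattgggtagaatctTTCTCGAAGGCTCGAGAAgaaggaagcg

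HSP60 and HSP10, encoded by *Hspd1* and *Hspe1*, form the folding chamber of the mitochondrial matrix. Their genes lie on opposite strands of chromosome 1 with starts 108 bases apart, and *Hspe1* lies within the annotated span of *Hspd1*. Their separate values may thus depend on whether counting used the strand. Of the 53 genes, only these 2 held an unaltered heat shock element, by the pattern and promoter window defined below. Elements outside that window were not searched for. Each window holds 2 overlapping matches, which begin at -52 and -47 from the *Hspd1* start and at -73 and -68 from the *Hspe1* start. Together the matches cover the same run of bases in both windows, read from opposite strands. The 150 bases before the *Hspd1* start (GRCm39, chr1:55127184-55127333, minus strand) hold this run in capitals.
Hspd1 promoter: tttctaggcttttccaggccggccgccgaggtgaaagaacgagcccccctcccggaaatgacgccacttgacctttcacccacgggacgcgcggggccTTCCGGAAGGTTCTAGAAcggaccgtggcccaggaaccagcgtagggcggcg

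*Hspd1* had 725, 932 and 1171 RPM (lowest, median, highest) at Rest in control myotubes, 2576, 2868 and 3132 RPM at EPS 0h and 4619, 5636 and 6549 RPM at EPS 3h. *Hspe1* had 265, 348 and 516 RPM, 761, 1012 and 1372 RPM, and 1120, 1636 and 3110 RPM. Both were above every Rest library at both times. The log2FC of *Hspd1* was 1.58 (SE 0.115, FDR = 7.98e-13) and 2.59 (SE 0.119, FDR = 1.15e-18), and that of *Hspe1* was 1.47 (SE 0.229, FDR = 3.67e-06) and 2.36 (SE 0.236, FDR = 2.01e-10). With *Hspa9*, all 3 mitochondrial members rose past the stricter rule at EPS 3h. Of 8 other genes of mitochondrial folding and proteolysis, none rose and 2 fell at EPS 3h in control myotubes, among them the protease gene *Htra2* (log2FC -0.64, FDR = 0.00594), and the highest of them, *Yme1l1*, gave 0.29 (FDR = 0.154).

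HSP90 proteins stabilise kinases, receptors and muscle myosin as they mature. *Hsp90aa1*, the inducible cytosolic form, had 1818, 2595 and 3714 RPM at Rest in control myotubes, 4477, 6043 and 7629 RPM at EPS 0h and 7562, 8516 and 15450 RPM at EPS 3h, with a log2FC of 1.20 (SE 0.189, FDR = 4.68e-06) and 1.97 (SE 0.193, FDR = 1.28e-10). All EPS libraries lay above all Rest libraries, while those of EPS 0h and EPS 3h overlapped. *Hsp90ab1*, the constitutive form, rose by 0.37 and 0.79. *Hsp90b1* (GRP94), the form of the ER, overlapped between conditions with 199 to 348 RPM, 267 to 486 RPM and 293 to 544 RPM, and its log2FC of 0.40 (SE 0.198, FDR = 0.109) and 0.41 (SE 0.198, FDR = 0.0794) was not called. With the replicate block it was called in control myotubes at both times (FDR = 0.002 and 0.000674) and at EPS 0h in *Tug1* KD (FDR = 0.000516), and without EPS 3h control replicate 3 it was called at EPS 3h in control myotubes (log2FC 0.48, FDR = 0.0484).

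The ER members moved within a narrow range. The 5 of them, *Hspa5*, *Hsp90b1*, *Hspa13*, *Dnajb9* and *Dnajc3*, had a log2FC between 0.37 and 0.60 at EPS 3h in control myotubes (median 0.51), 4 rose and none passed the stricter rule, where 18 of the 45 cytosolic and nuclear members did. *Hspa5*, *Hsp90b1* and *Dnajc3* were the only 3 of the 53 with an ER stress element, by the pattern and promoter window defined below. The windows of *Hspa5* (GRCm39, chr2:34661954-34662103, plus strand) and *Hsp90b1* (chr10:86541379-86541528, minus strand) are shown with the element in capitals, for contrast with those above.
Hspa5 promoter: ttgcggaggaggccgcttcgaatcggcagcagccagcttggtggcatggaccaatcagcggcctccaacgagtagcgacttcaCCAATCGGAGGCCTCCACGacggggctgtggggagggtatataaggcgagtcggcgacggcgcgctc
Hsp90b1 promoter: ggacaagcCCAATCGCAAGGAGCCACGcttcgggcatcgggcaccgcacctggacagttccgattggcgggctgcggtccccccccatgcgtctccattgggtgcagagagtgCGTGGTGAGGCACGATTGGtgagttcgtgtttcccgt
Of 12 other genes of ER folding and stress, 2 rose and 1 fell at EPS 3h in control myotubes, from *Canx* (calnexin, log2FC 0.49, FDR = 2.21e-05) to *Pdia4*, a protein disulfide isomerase (-0.36, FDR = 1.94e-05).

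Across all promoters the elements were rare, and the matches are descriptions of sequence only. Windows of 250 bases before to 50 after the start were read for 13945 genes on GRCm39 and searched on both strands. The heat shock element was taken as the triplets GAA, TTC and GAA, each 2 free bases from the next, or the reverse complement TTC, GAA and TTC, and stood in 0.516% of them and in 3.77% of the 53 windows. Of 70 genes outside the 53 that carry it, 27.1% rose past the stricter rule at EPS 3h in control myotubes, against 9.28% of 13822 genes without it. With at most 1 of 9 letters different, a rule chosen after seeing how few windows held the full element, it stood in 6.0% of all windows and in 26.4% of the members'. The 14 members that hold it had a median log2FC of 1.39 at EPS 3h and 13 rose, 11 of them past the stricter rule, and the 39 without it had a median of 0.53, with 27 higher, 3 lower and 10 past the stricter rule. These 14 are not all separate promoters. The windows of *Hspa1a* and *Hspa1b* differ at 4 of 300 bases, and those of *Hspd1* and *Hspe1* hold the same matched bases. Outside the 53, the difference was smaller, as 13.6% of 823 genes with the relaxed element rose past the stricter rule against 9.11% of those without it, and the median log2FC with it was 0.04. The 3 members with the ER stress element, taken as CCAAT and CCACG with 9 free bases between them (0.115% of all windows, 5.66% of the members') had a log2FC between 0.37 and 0.53.

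Small heat shock proteins divided into genes that rose and genes that did not. *Hspb1* (HSP25 in the mouse) had 1963, 2543 and 3191 RPM at Rest in control myotubes, 3836, 4090 and 4553 RPM at EPS 0h and 5837, 6659 and 10150 RPM at EPS 3h, each condition above the one before. Its log2FC was 0.74 (SE 0.13, FDR = 2.25e-05) and 1.55 (SE 0.132, FDR = 4.58e-12). *Hspb8*, the partner of BAG3, rose by 0.49 and 0.88, and *Cryab* (alpha B-crystallin) by 1.16 at EPS 3h (at EPS 0h 0.40, FDR = 0.0514, and 0.00159 with the replicate block). *Hspb2* overlaps *Cryab*, with starts 329 bases apart on opposite strands, and gave -0.24 and -0.03 without a call. *Hspb3* and *Hspb6* were not called either, with -0.10 and 0.14 and with -0.02 and -0.16. *Hspb7*, a heart and muscle form, fell from 174, 181 and 199 RPM at Rest to 130, 147 and 171 RPM at EPS 0h (log2FC -0.32, SE 0.093, FDR = 0.00591) and to 114, 166 and 179 RPM at EPS 3h (-0.28, SE 0.093, FDR = 0.0124), where the libraries overlapped with Rest. At EPS 3h replicates 1 to 3 had 113.5 to 166.3 RPM against 179.5 to 198.5 RPM at Rest. Replicates 4 to 6 had 164.7 to 179.4 RPM against 174.2 to 193.6 RPM and overlapped.

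DNAJ proteins start the HSP70 cycle, and this class held both large rises and a fall. *Dnaja4* had 79.6, 98.8 and 140 RPM at Rest in control myotubes, 357, 510 and 578 RPM at EPS 0h and 690, 769 and 793 RPM at EPS 3h. The conditions did not overlap, and its log2FC was 2.23 (SE 0.143, FDR = 6.28e-14) and 2.84 (SE 0.146, FDR = 1.81e-17). *Dnajb1*, the main stress-inducible HSP40, rose 2.95-fold and 5.64-fold, from 710 to 1217 RPM at Rest to 5134 to 5881 RPM by EPS 3h. *Dnajb4* rose by a log2FC of 1.11 and 1.52 and *Dnaja1* by 0.84 and 1.18. *Dnajc3*, an ER cochaperone, rose by 0.49 and 0.53, while *Dnajb9*, *Dnajb6* and *Dnaja2* were called only at EPS 3h, with 0.60, 0.50 and 0.40 (*Dnajb6* also at EPS 0h with the replicate block, FDR = 0.0298), and *Dnajb2* was not called, with -0.21 and -0.22 (without EPS 3h control replicate 3, -0.43 at EPS 3h, FDR = 0.0244). *Dnajb5* fell from 75.3, 94.6 and 124 RPM at Rest to 59.9, 63.3 and 74.0 RPM at EPS 0h (log2FC -0.59, SE 0.131, FDR = 0.000503) and to 42.1, 52.4 and 85.5 RPM at EPS 3h (-0.80, SE 0.131, FDR = 3.74e-06). At EPS 3h 1 library, replicate 3, overlapped with Rest.

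Of the BAG proteins, nucleotide exchange factors of HSP70, *Bag3* alone was called after EPS. *Bag3*, which serves the autophagic clearance of damaged sarcomere proteins, had 460, 515 and 626 RPM at Rest in control myotubes, 1071, 1232 and 1491 RPM at EPS 0h and 1756, 1932 and 2251 RPM at EPS 3h. Its log2FC was 1.23 (SE 0.1, FDR = 1.14e-11) and 1.90 (SE 0.102, FDR = 5.65e-17), with no overlap. *Bag1* ranged from 251 to 350 RPM at Rest and from 264 to 433 RPM at EPS 3h (log2FC 0.09, SE 0.133, FDR = 0.604). *Bag2* ranged from 56.0 to 66.0 RPM and from 58.3 to 78.2 RPM (log2FC 0.16, SE 0.0784, FDR = 0.0798). Its FDR was 0.0454 with the replicate block and 0.052 with the replicate sets as a block, and its log2FC was 0.33 for replicates 1 to 3 but -0.00397 for replicates 4 to 6.

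The heat shock factor genes themselves moved little. *Hsf1* had 75.0, 84.7 and 93.3 RPM at Rest in control myotubes, 77.5, 80.5 and 84.7 RPM at EPS 0h and 76.5, 78.5 and 99.7 RPM at EPS 3h, with a log2FC of -0.06 (SE 0.0703, FDR = 0.496) and -0.05 (SE 0.0703, FDR = 0.582). *Hsf2* had 38.9, 54.5 and 64.8 RPM, 57.0, 71.3 and 90.8 RPM, and 63.6, 72.8 and 106 RPM. It rose by a log2FC of 0.47 (SE 0.157, FDR = 0.0172) and 0.62 (SE 0.157, FDR = 0.00112), although its libraries overlapped with Rest. Of 9 tested partners and other targets of heat shock factors, 5 rose and 1 fell at EPS 3h, from *Zfand2a* (log2FC 1.44, FDR = 1.68e-11) to *Hsf4* (-0.59, FDR = 0.000211).

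Of the 7 cochaperones of HSP70 and HSP90, 6 rose at both times in control myotubes. The largest change was that of *Chordc1*, an HSP90 partner, with 187, 242 and 373 RPM at Rest, 371, 458 and 646 RPM at EPS 0h and 524, 685 and 1116 RPM at EPS 3h (log2FC 0.91, SE 0.207, FDR = 0.0006, and 1.59, SE 0.211, FDR = 8.08e-08), and only its EPS 3h libraries were clear of Rest. *Ahsa1*, which speeds the HSP90 ATPase, rose by 0.58 and 1.40, *Stip1* (HOP), the adaptor between HSP70 and HSP90, by 0.77 and 1.24, and *St13* (HIP) by 0.73 and 1.06. *Ptges3* (p23) rose by 0.93 and 1.06 and *Fkbp4* by 0.69 and 0.63. *Stub1* (CHIP), the ubiquitin ligase that works with chaperones, had 50.1 to 68.5 RPM at Rest and 43.7 to 59.4 RPM at EPS 3h (log2FC -0.11, SE 0.102, FDR = 0.394). Of 16 further cochaperones 6 rose and 3 fell at EPS 3h, from *Hikeshi*, the nuclear carrier of HSP70, which went from 26.3 to 38.9 RPM at Rest to 96.5 to 198 RPM (log2FC 2.08, SE 0.198, FDR = 6.2e-11), to *Fkbp5* (-0.60, FDR = 9.26e-06).

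The CCT chaperonin, a double ring that folds actin and tubulin, rose by little. The median log2FC of its members against Rest was 0.22 straight after EPS and 0.50 after recovery in control myotubes. With *Tug1* KD the median was 0.27 straight after EPS, when 4 of the 7 were called. After recovery it was 0.40, and all 7 were called. Of the 7 subunits in the set, *Cct2* and *Cct4* rose at EPS 0h in control myotubes (with the replicate block also *Tcp1* and *Cct8*, FDR = 0.0255 and 0.00453, though *Tcp1* gave -0.01 with replicates 4 to 6 alone) and all 7 at EPS 3h, with a log2FC between 0.29 and 0.71. *Cct8* changed most, from 349, 415 and 461 RPM at Rest to 539, 661 and 826 RPM at EPS 3h (log2FC 0.71, SE 0.103, FDR = 4.82e-07), with no overlap. *Cct7* changed least, from 577, 596 and 664 RPM to 570, 742 and 1018 RPM (0.29, SE 0.109, FDR = 0.025). Without EPS 3h control replicate 3, its value was 0.18 (FDR = 0.135) and no longer called. The remaining subunit, *Cct6a*, rose by 0.47 (FDR = 0.00138), and none of the 6 prefoldin genes was called, the lowest being *Pfdn6* with -0.40 (FDR = 0.161). Of 16 further DNAJ, HSP70 and HSP90 genes, 2 rose and 3 fell, from *Dnajc5* (0.55, FDR = 3.11e-07) to *Hspa12b* (-0.78, FDR = 0.00377).

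Summed over each class, the levels at EPS 3h in control myotubes stood at different multiples of Rest. The mitochondrial chaperonin was 5.77-fold higher, HSP70 4.67-fold, HSP110 4.42-fold, DNAJ 3.14-fold, BAG 2.62-fold, small heat shock proteins 2.53-fold, HSP90 2.42-fold, cochaperones 2.19-fold, CCT 1.40-fold and heat shock factors 1.18-fold, as ratios of mean RPM. The HSP70 sum of the Rest libraries was 5945 to 7530 RPM, that of EPS 0h 13180 to 15800 RPM and that of EPS 3h 26980 to 35390 RPM, and the CCT sum was 2982 to 3213 RPM, 3096 to 3860 RPM and 3543 to 5087 RPM. HSP70 did not overlap between any 2 conditions, whereas CCT overlapped between Rest and EPS 0h. Of all counts on the 53 genes, HSP70 held 19.98% at Rest and 29.8% at EPS 3h, and CCT 9.26% and 4.13%. As shares of the summed rise in RPM, which gives longer transcripts more weight, *Hspa1b* made up 22.0%, *Hsph1* 11.9%, *Hsp90aa1* 10.8% and *Hspa1a* 7.33%, together 52.0%. Per transcript length (RPKM), *Hspb1* was highest at Rest with 2711 ± 486 RPKM (SD, n = 6), before *Hsp90ab1* with 1952 ± 125 and *Hspa8* with 1304 ± 79.6. At EPS 3h *Hspb1* had 7936 ± 1886 RPKM and *Hspa1b* 6258 ± 653, means whose SDs overlap, and *Hsp90ab1* had 3373 ± 254.

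**Figure D3:**
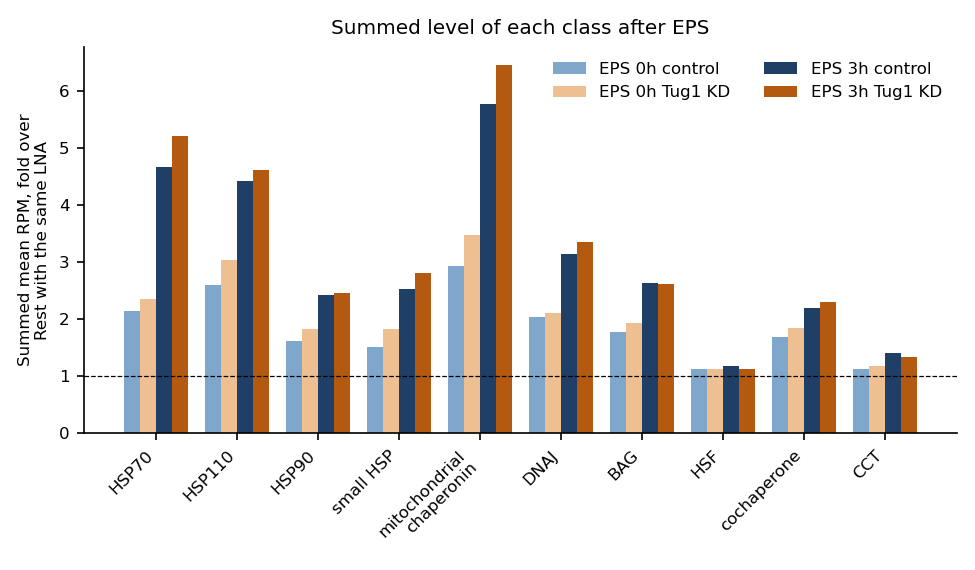
Fold of the summed mean RPM of each class over Rest with the same LNA (vertical axis, linear from 0), at EPS 0h (light) and EPS 3h (dark), in control (blue) and *Tug1* KD (orange). The mitochondrial chaperonin and HSP70 bars are the tallest at EPS 3h, 5.77 and 4.67 in control, and the heat shock factor bars stay near the dashed line at 1.

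**Figure D4:**
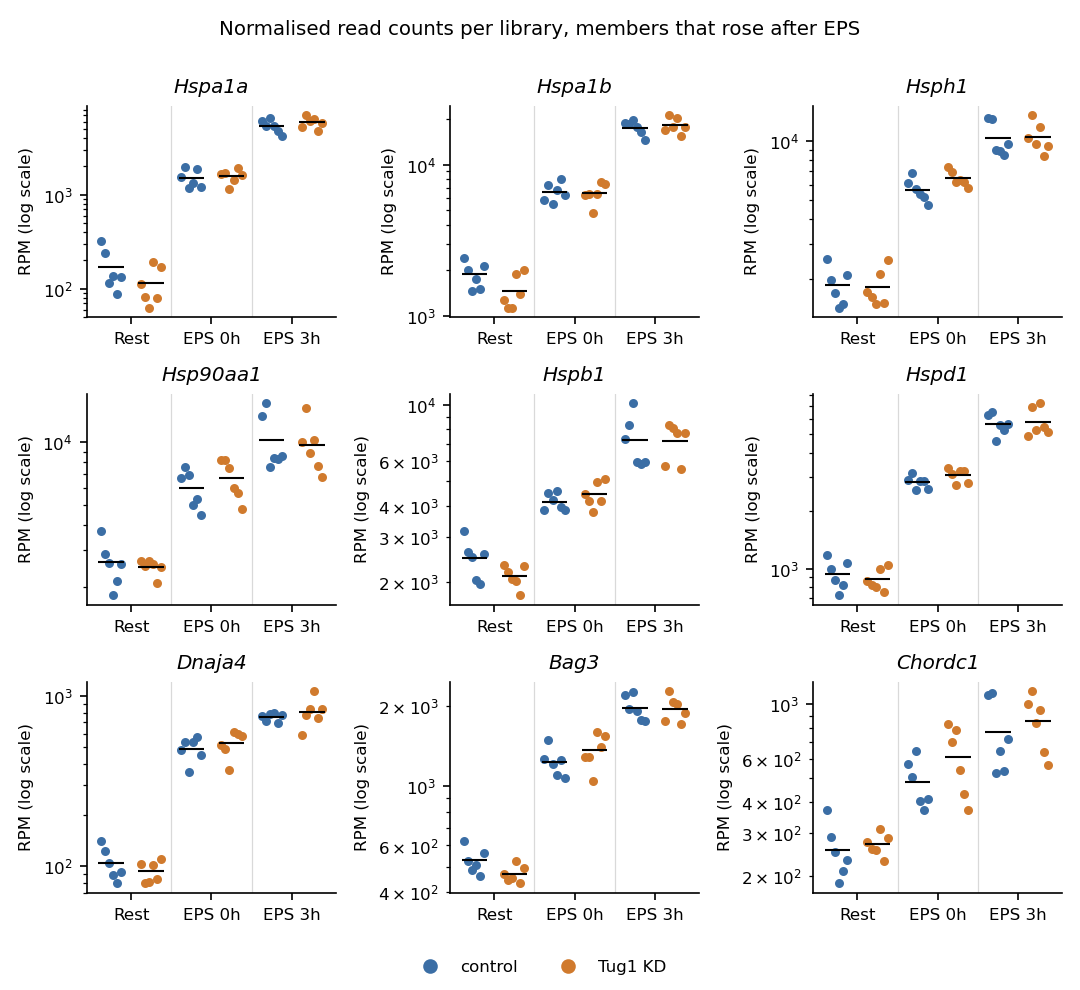
RPM (vertical axes, log scale) of 9 genes that rose, in each library, by condition and LNA, with lines at group means. For *Hspa1a* the control libraries go from 87.5 to 323 RPM at Rest to 4195 to 6510 RPM at EPS 3h, and the *Tug1* KD libraries overlap with them in every condition.

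The question of whether *Tug1* KD alters this response was put to the interaction of EPS and LNA. *Tug1* itself reached 40.0 to 84.6 RPM in *Tug1* KD at EPS 3h, so the LNAs are compared here, not fixed levels of *Tug1*. None of the 53 genes passed an FDR of 0.05 at EPS 0h or at EPS 3h (edgeR), and over all genes 0% and 0.00715% were called higher. At an unadjusted p under 0.05 there was 1 member at EPS 0h and 2 at EPS 3h, among 324 and 430 of all genes, and DESeq2, limma-voom and the other alternatives also called none. The member at EPS 0h was *Bag3* (0.31, SE 0.14, unadjusted p = 0.0316), and those at EPS 3h were *Hspa1b* (0.41, SE 0.199, unadjusted p = 0.0481) and *Hspa13* (-0.37, SE 0.166, unadjusted p = 0.0334), the last named after its value was seen. *Hspa1a* had an interaction of 0.62 (SE 0.342) and 0.69 (SE 0.342), neither of which was called (unadjusted p = 0.076 and 0.0502). At Rest its replicates 1 to 3 had 114 to 323 RPM in control against 63.2 to 112 RPM in *Tug1* KD. Its replicates 4 to 6 had 87.5 to 136 RPM against 79.1 to 190 RPM, so the sets differed at Rest.

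Class sums are given side by side for the LNAs, without a test. The HSP70 sum at EPS 3h was 31102 ± 3450 RPM in control against 31545 ± 3423 RPM in *Tug1* KD (SD, n = 6), and at Rest 6656 ± 642 and 6053 ± 514 RPM. The HSP90 sum at EPS 3h was 19790 ± 3642 and 19034 ± 3116 RPM, and the small heat shock protein sum 10357 ± 2467 and 10034 ± 1665 RPM. *Hspa1a* at Rest had a log2FC of -0.57 (SE 0.243, FDR = 0.153) and *Hspa1b* of -0.35 (SE 0.141, FDR = 0.116) in *Tug1* KD against control, neither of which was called. For *Hspa1b* at Rest the LNAs did not overlap in replicates 1 to 3, with 1467 to 2427 RPM in control and 1138 to 1277 RPM in *Tug1* KD. In replicates 4 to 6 they did, with 1501 to 2136 RPM and 1391 to 2010 RPM.

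Directly compared with control, *Tug1* KD lowered 4 of the 53 genes at Rest, 4 at EPS 0h and 5 at EPS 3h and raised none, beside 4.47%, 6.07% and 5.11% of all genes that were lower and 5.54%, 8.25% and 6.38% that were higher. The same 4 genes, *Hspb6*, *Hspb7*, *Hspa2* and *Bag2*, were called in each condition. In each condition *Hspb6* and *Hspb7* passed the test under all alternatives tried. *Hspa2* did not pass with replicates 1 to 3 alone in any condition, without the low-count filter at Rest and EPS 0h, or with only the groups compared at EPS 3h. *Bag2* did not pass without the low-count filter in any condition, with replicates 1 to 3 alone at Rest and EPS 0h, with only the groups compared at EPS 0h and EPS 3h, or with replicates 4 to 6 alone at EPS 3h (log2FC -0.10).

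*Hspb6* (HSP20), a small heat shock protein of muscle, had 15.7, 17.9 and 21.3 RPM (lowest, median, highest) in control and 7.24, 9.01 and 11.6 RPM in *Tug1* KD at Rest, 15.9, 18.4 and 19.3 RPM against 6.17, 8.26 and 10.9 RPM at EPS 0h, and 12.04, 15.8 and 20.5 RPM against 6.69, 9.05 and 12.2 RPM at EPS 3h. The LNAs overlapped only at EPS 3h. Its log2FC was -1.02 (SE 0.14, FDR = 2.82e-06), -1.09 (SE 0.141, FDR = 7.61e-07) and -0.82 (SE 0.141, FDR = 9.07e-05). *Hspb6* lies on chromosome 7 (30251603 to 30256218, GRCm39) and overlaps 2 tested genes on the opposite strand, whose reads could be told apart only if counting used the strand.

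*Hspb7* (chromosome 4, 141148090 to 141152625) had 174, 181 and 199 RPM in control and 84.0, 98.4 and 107 RPM in *Tug1* KD at Rest. At EPS 0h it had 130, 147 and 171 RPM against 79.6, 83.6 and 87.6 RPM, and at EPS 3h 114, 166 and 179 RPM against 76.1, 92.3 and 99.9 RPM. All *Tug1* KD libraries lay below all control libraries in the 3 conditions, with a log2FC of -0.94 (SE 0.0939, FDR = 6.71e-09), -0.82 (SE 0.0938, FDR = 8.18e-08) and -0.75 (SE 0.0938, FDR = 5.23e-07). *Hspb3* pointed the same way with -0.36, -0.36 and -0.56 and was not called, while the replicate block called it at both EPS times (FDR = 0.0221 and 0.00201).

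*Hspa2* was lower in *Tug1* KD by a smaller log2FC, with 35.5, 40.1 and 44.6 RPM against 44.3, 47.3 and 50.8 RPM at Rest, and a log2FC of -0.26 (SE 0.0839, FDR = 0.0388), -0.32 (SE 0.0847, FDR = 0.00723) and -0.36 (SE 0.0853, FDR = 0.00386) in the 3 conditions. At EPS 0h alone its libraries did not overlap. *Bag2*, which curbs the ubiquitin ligase CHIP, had 46.8, 49.7 and 51.6 RPM against 56.0, 60.0 and 66.0 RPM at Rest, with a log2FC of -0.29 (SE 0.0786, FDR = 0.0128), -0.28 (SE 0.0786, FDR = 0.0135) and -0.27 (SE 0.0786, FDR = 0.0184), and its libraries overlapped at EPS 0h and EPS 3h. The fifth gene called at EPS 3h was *Dnaja2*, named after its values were seen, with 403 to 480 RPM against 486 to 613 RPM (log2FC -0.24, SE 0.0684, FDR = 0.0187). With the replicate number as a block, 7 of the 53 were called at EPS 0h, 2 higher (*Hspa9* and *Dnajb4*) and 5 lower, beside 13.1% and 11.2% of all genes. At EPS 3h the block called 9, 1 higher (*Dnajb4*) and 8 lower, beside 10.8% and 9.75% of all genes. Without EPS 3h control replicate 3 there were 8 at EPS 3h, 2 higher (*Dnajb2*, log2FC 0.52, and *Hsf1*, log2FC 0.20) and 6 lower, beside 6.1% and 5.12% of all genes.

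**Figure D5:**
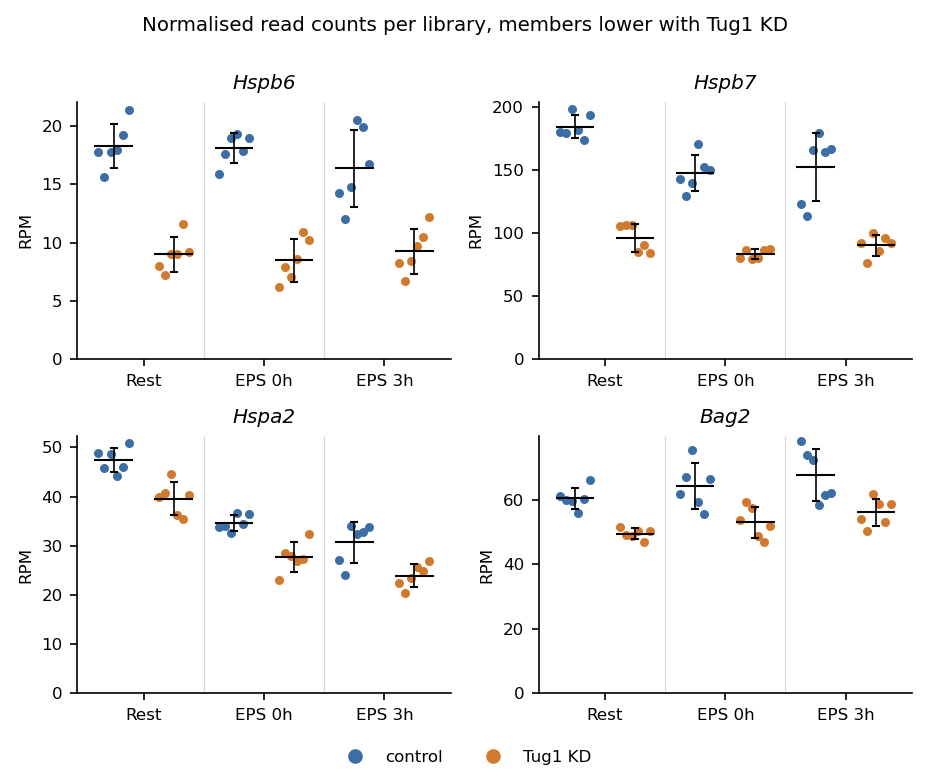
RPM (vertical axes, linear from 0) of the 4 genes that were lower with *Tug1* KD, in each library, by condition, with control in blue and *Tug1* KD in orange. Lines and bars are group means and SDs (n = 6). For *Hspb7* the *Tug1* KD libraries lie between 76.1 and 107 RPM and the control libraries between 114 and 199 RPM.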

How the data were processed

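RNA-seq libraries of C2C12 myotubes (36, in 6 groups of 6) were analysed from the deposited whole-number counts per gene, which the authors made by trimming reads with fastp 0.14.1 and aligning them with STAR 2.5 to GRCm39. How reads were assigned to genes, and whether by strand, is not given in the sources used here, and 45 of the 53 genes overlap another annotated gene. Rows without a gene name (1492) hold 0.0327% of the counts. Groups and replicate numbers came from the titles. A gene was kept if 12 or more libraries reached 1 RPM. Contrasts were tested in R 4.3.3 with edgeR 4.0.16 (TMM, robust quasi-likelihood, all 6 groups together), with Benjamini-Hochberg FDR over 13995 genes and a call at an FDR under 0.05. The procedure was tested on simulated data. The SE of a log2FC was taken as its absolute value divided by the square root of the edgeR F statistic. RPKM used GENCODE canonical transcript lengths. Replicate numbers were taken as pairs where every same-number pair correlated above 0.1 (from 0.127 upwards) after centring within groups, which held for all comparisons except EPS 3h against Rest in *Tug1* KD, EPS 3h against EPS 0h in control and *Tug1* KD against control at Rest. Libraries of the same number also lie in the same replicate set, so this check cannot tell pairing by number from the sets. Neither the labels nor the study's methods say that wells of the same number belong together. The members, lists and tests were chosen with earlier results of these data known. Members named are those with the largest and smallest log2FC of each class at EPS 3h in control, *Hspa1a*, *Hspa1b*, both genes of the mitochondrial chaperonin and heat shock factor classes, and up to 4 called in each *Tug1* KD comparison; of the other lists, the largest and the smallest. Alternatives were DESeq2 1.42.0, limma-voom (limma 3.58.1), scaling by library size, other filters, replicate and set blocks, only the groups compared, each replicate set alone and, chosen after seeing the data, leaving out 1 library. The 2 sets are replicates 1 to 3 and 4 to 6, chosen from the correlations between libraries, since the labels do not name the experiments.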

Additional observations from a re-analysis of the deposited data

Results flagged for a closer look

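In groups of 6 libraries, a library was marked when its gap to the nearest other was large for the range of its group (Dixon's ratio on log2 RPM), which chance does in about 1 of 20 groups, or 7.2 of the 144 groups examined. There were 3 such values. *Hsp90aa1* had 2088 RPM in Rest *Tug1* KD replicate 5, below the 2500 to 2675 RPM of the other libraries. *Bag1* had 251.2 RPM in Rest control replicate 6, below 317 to 350 RPM in the others. *Hsf1* had 99.7 RPM in EPS 3h control replicate 3, above 76.5 to 81.8 RPM in the others, in the library that correlated least with its set.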

How the results depend on the processing

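No called value of a named gene changed sign under an alternative. Values that were not called did: of the uncalled genes among the 53, 12 of 21 at EPS 0h and 6 of 10 at EPS 3h against Rest in control turned sign with scaling by library size or in 1 of the replicate sets. At EPS 3h *Bag1* went from 0.09 to -0.08, *Hspb3* from 0.14 to -0.04 and *Hspa14* from 0.08 to -0.09 with library-size scaling, and at EPS 0h *Hspb2* went from -0.24 to 0.33 in replicates 4 to 6. Of 165 recomputed counts of called genes 154 stayed within 1.5 times the reported count, and of 902 recomputed log2FC values of named genes 867 kept their call and 35 lost it, all with the same sign. Without a filter on low counts, 19 of the 53 genes instead of 31 were called between the EPS times in control, and 2, 2 and 3 instead of 4, 4 and 5 for *Tug1* KD at Rest, EPS 0h and EPS 3h. For *Tug1* KD at Rest, replicates 4 to 6 alone gave 7. At EPS 0h the replicate block gave 7 and replicates 1 to 3 alone gave 2. At EPS 3h the replicate block and the replicate set block each gave 9, the fit to the groups compared alone gave 2, and the fit without EPS 3h control replicate 3 gave 8. Without that library, a choice made after seeing the data, *Dnajb4* (log2FC 0.49, FDR = 0.0201) and *Dnajb5* (-0.38, FDR = 0.0225) were also called between the EPS times in control and *Cct5* was not (0.21, FDR = 0.122), and *Cryab* (FDR = 0.0329) and *Dnajb6* (FDR = 0.0332) were called at EPS 0h against Rest in control. The causes were not tested. Where the replicate numbers did not meet the rule for taking them as pairs, the block gave 6 called genes for *Tug1* KD at Rest (4 without it, gaining *Hspb3*, -0.37, FDR = 0.0347, and *Bag1*, 0.32, FDR = 0.0162), 43 at EPS 3h against Rest in *Tug1* KD (41 without it) and 34 between the EPS times in control (31 without it). Levels of *Hspa1a* and *Hspa1b* depend on how reads common to both were assigned.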
